A study of Arabidopsis thaliana with 4 samples.

Results

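A set of 247 genes of *Arabidopsis* is described here for which the study listed several bZIP17 binding peaks in at least 1 of 3 ChIP-seq replicates. The genes were taken from the lines of the study's list of target genes that were used here, in which each line pairs a peak of replicate 1, a peak of replicate 2 and a peak of replicate 3 for 1 gene. These 1389 lines named 842 target genes, and 289 of them had 2 or more lines. A further 1240 lines of the list were not used here, so the 842 genes, called the target genes below, are only a part of those the study names. Of these, 270 were not on the study's list of genes that respond to heat in flowers through bZIP17, 20 of the 270 had a mean highest pileup of 150 or more over the replicates, and 3 were left out by name. The remaining 247 genes were 29.3% of the target genes and 85.5% of the target genes with several lines. The number of lines and the pileup chose the genes, so both are given as a description and were not tested.

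All libraries came from 13-day-old seedlings of a line that carries 35Spro::MYC-bZIP17, that is, a MYC-tagged bZIP17 expressed from the 35S promoter, which is active in most tissues. The seedlings were grown at 22 °C and moved to 42 °C for 2 h. An anti-MYC antibody was used for 3 ChIP replicates, and 1 input library of the same kind of seedlings served as the background for peak calling. There was no unheated sample and no untagged plant among the samples, and nothing in the sources used here says that the replicates were separate cultures, so the spread between them may be technical.

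bZIP17 is a transcription factor held in the membrane of the endoplasmic reticulum (ER). Under stress it is moved to the Golgi and cut by proteases, and the freed part enters the nucleus, where it activates stress-response genes. Its paralog bZIP28 is a regulator of the unfolded protein response, and how far bZIP17 shares that role is not settled. Factors of this family bind short motifs with an ACGT core, of which a promoter can hold several, so several separate peaks in a promoter are possible. In a peak list the pileup is the number of overlapping fragments at the highest point of a peak, the summit, and the fold enrichment is that height relative to the local background.

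The additional peaks mostly appeared in a single replicate. Every target gene had as many lines as the product of its numbers of peaks in the 3 replicates. Accordingly 180 genes (72.9%) had 2 lines, 4 had 3, 46 (18.6%) had 4, 13 (5.26%) had 8 and 4 (1.62%) had 12. Several peaks were present in exactly 1 replicate at 184 genes (74.5%), in 2 replicates at 46 genes (18.6%) and in all 3 at 17 genes (6.88%). Replicate 1 gave several peaks at 138 genes (55.9%), replicate 2 at 101 (40.9%) and replicate 3 at 88 (35.6%). Replicate 1 thus held the most, and it was the sole source at 85 genes against 51 for replicate 2 and 48 for replicate 3. The deposited lists were of similar length, with 4523, 4491 and 4330 peaks. A gene had 3 peaks in a replicate at most, which was seen for 5 genes in replicate 1, 2 genes in replicate 2 and 1 gene in replicate 3.

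The 4 genes with 12 lines were *FIM1* (AT4G26700), which encodes the actin-bundling protein fimbrin, *ABIL4* (AT5G42030), which encodes an ABI-like subunit of the SCAR/WAVE complex that promotes actin branching, AT1G56220 and AT3G52700. *FIM1*, AT1G56220 and AT3G52700 had 3, 2 and 2 peaks in replicates 1, 2 and 3, and *ABIL4* had 2, 2 and 3.

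To ask whether the same place was bound in each replicate, the listed peaks of a gene were joined into sites wherever they overlapped by at least 1 bp. Sites were ordered by the number of replicates and then by pileup, and the first is called the leading site and the next the second site. At 76 genes (30.8%, against 32.2% of the 286 multi-line target genes) all listed peaks joined into a single site. A second site was present in 1 replicate at 126 genes (51.0%, against 49%), in 2 replicates at 32 genes (13.0%) and in all 3 replicates at 13 genes (5.26%, against 5.24%). The 247 genes make up most of the 286, so these shares are close by construction. For all deposited peaks, 14.9% of the merged regions held a peak of all 3 replicates. By its definition the leading site is the most recurrent, and each gene had a listed peak in every replicate. Of the genes, 223 (90.3%) had exactly 1 site common to the 3 replicates, and 11 (4.45%) had no common site. Among the 20 genes above the pileup limit 2 had a second site in all replicates, and among the 19 multi-line genes on the flower list 0 had, and no test was made of these differences.

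**Figure D1:**
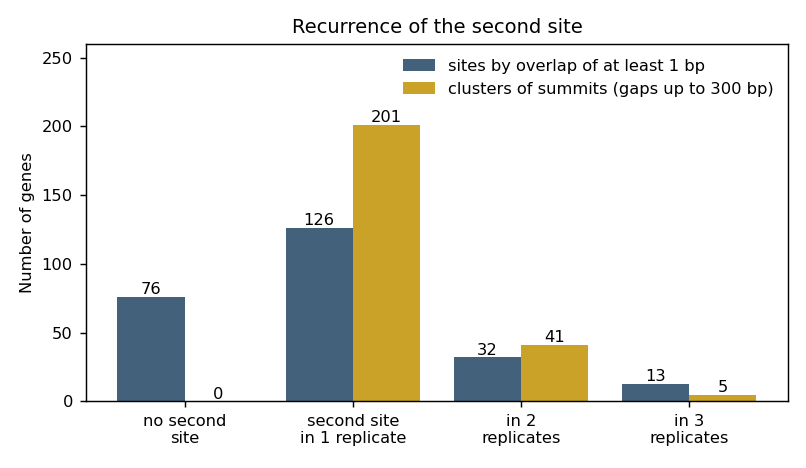
Number of genes, of 247, by how many replicates held the second site. Blue bars join peaks that overlap and yellow bars join summits with gaps of up to 300 bp, and the genes whose second site was in all 3 replicates number 13 and 5.

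Where the second site was in 1 replicate only, this was replicate 1 at 63 genes, replicate 2 at 33 and replicate 3 at 30. Where it was in 2, replicates 1 and 2 shared it at 15 genes, replicates 1 and 3 at 10, and replicates 2 and 3 at 7. The pileup of the second site was averaged over the replicates that listed it. Its median was 34.0 when it was in 1 replicate, 34.0 when in 2 and 35.0 when in 3. The ranges were 27 to 325, 27.5 to 39 and 29.7 to 48.7. Replicates without a listed peak do not enter, so these values cannot say whether strength and recurrence are related. The median of the leading sites of these genes was 52, 47.5 and 47.7. The genes with a single site had a median leading pileup of 64.3.

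Overlap is a loose rule for wide peaks, and the position of the summit is a stricter one. When summits with gaps of up to 300 bp were joined instead, every gene had more than 1 cluster of summits, and a second cluster was in all 3 replicates at 5 genes (2.02%, against 1.75% of the 286), in 2 replicates at 41 and in 1 at 201. The 5 genes were *FIM1*, *ERF4*, AT1G04501, AT1G13940 and AT3G15200, and all 5 were among the 13 found by overlap. That every gene had more than 1 cluster was largely fixed in advance. The genes were chosen for several peaks in a replicate, and such summits were never closer than 397 bp. No cluster held all 3 replicates at 45 genes (18.2%). The leading sites themselves were well placed. Of 236 leading sites with all 3 replicates, 173 (73.3%) had their highest summits within 200 bp of each other, with a median spread of 98.5 bp.

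*FIM1* had the clearest second site. Its leading site was at chr4:13459822-13461755 (TAIR10) with a pileup of 73, 88 and 80 in replicates 1, 2 and 3, and its second site at chr4:13462690-13463547 with 54, 49 and 43. The leading site was the higher in every replicate, and the ranges of both sites did not overlap. Fold enrichment was 3.80 ± 0.380 (SD, n = 3) at the leading site and 2.82 ± 0.271 at the second. The summits of the second site were at positions 13462960, 13462968 and 13462996, a spread of 36 bp, which was the least among the second sites of the 13 genes, and those of the leading site spread over 82 bp. The distance between both summits was 1940, 1911 and 2021 bp. A further peak between them, with a summit at 13462292 and a pileup of 39, was listed in replicate 1 only. The 3 leading peaks and this middle peak were also listed for the neighbouring *SHV3* (AT4G26690), whereas the peaks of the second site were listed for *FIM1* alone among the target genes. The second peak of *FIM1* in replicate 1, at 54, was also the highest second peak in any replicate of the 247 genes.

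*ABIL4* reached as many lines in a different way. Its leading site at chr5:16814708-16815797 had a pileup of 54, 41 and 49, and its second site at chr5:16812487-16814399 had 39, 36 and 39. The peaks overlapped in each case, but the summits of the second site were at 16813334, 16813888 and 16812609, a spread of 1279 bp, and those of the leading site spread over 532 bp. In replicate 3 the second site was split, and the additional summit at 16814370 had a pileup of 33. By summits, no cluster of *ABIL4* therefore held all 3 replicates. The distances between the leading and the second summit were 2171, 1482 and 2364 bp. Of the 7 peaks of *ABIL4*, 3 were also listed for the neighbouring *RPN12b* (AT5G42040), a target gene outside the set.

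**Figure D2:**
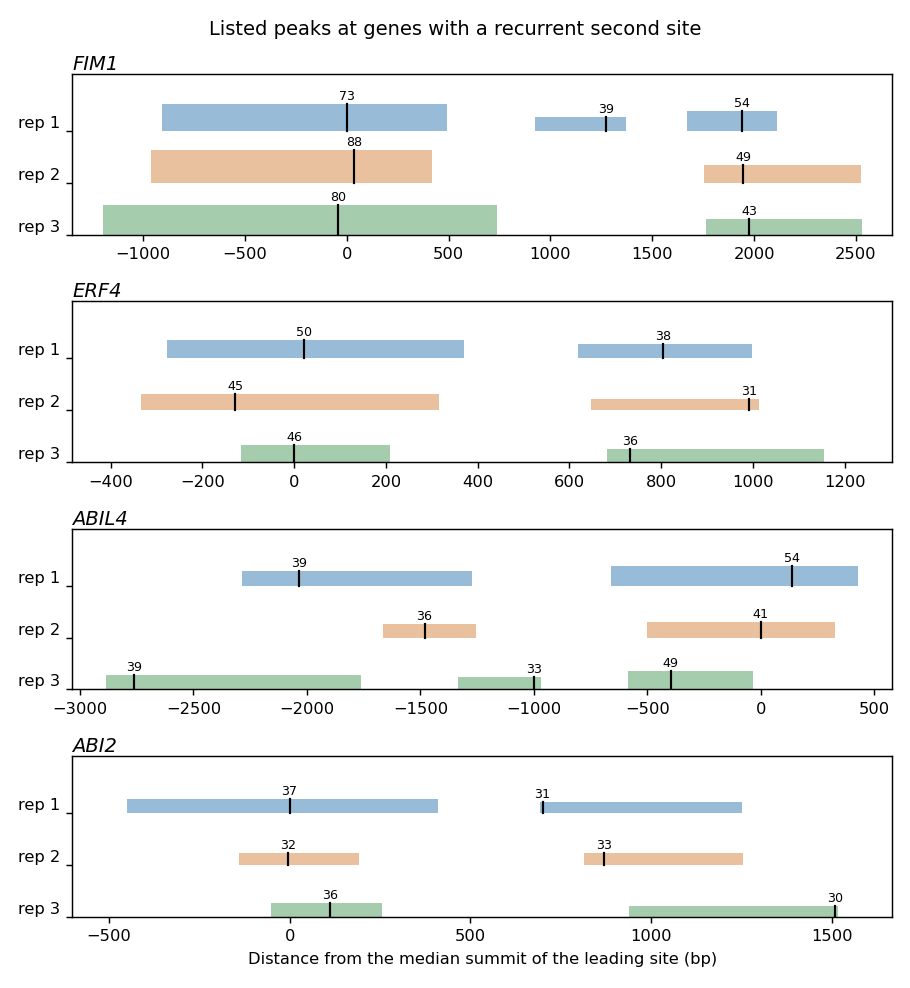
Listed peaks of *FIM1*, *ERF4*, *ABIL4* and *ABI2* in the 3 replicates, against the distance in bp from the median summit of the leading site. Each block spans a peak, its height is proportional to the pileup printed above the summit line, and the summits of *FIM1* line up in the 3 replicates whereas the second-site summits of *ABIL4* and *ABI2* do not.

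*ERF4* (AT3G15210), an ethylene response factor that represses transcription, and the neighbouring AT3G15200 were listed with the same peaks. The leading site at chr3:5119612-5120315 had a pileup of 50, 45 and 46, and the second at chr3:5120564-5121098 had 38, 31 and 36. The leading site was higher in each replicate, and the summits were 878 ± 210.5 bp apart (SD, n = 3), the shortest mean distance among the 13 genes. The summits spread over 150 bp at the leading site and 259 bp at the second.

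AT1G04501 had a leading site of 82, 72 and 81 at chr1:1223522-1226228 and a second site of 38, 36 and 36 at chr1:1222568-1223077. The second site reached 46.8% of the leading one, and the distance of 1694 ± 38.7 bp varied less than at any other of the 13 genes. Of its 6 peaks, 3 were also listed for AT1G04500. At AT1G13940 the sites could not be ranked by height. The pileup was 37, 28 and 32 at chr1:4767187-4767969 and 36, 31 and 27 at chr1:4768535-4769101, the ranges overlapped, and the second site was the higher in replicate 2.

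*ABI2* (AT5G57050) encodes a protein phosphatase that holds back abscisic acid (ABA) signalling. Both of its sites were low, with a pileup of 37, 32 and 36 at chr5:23085664-23086525 and 31, 33 and 30 at chr5:23086808-23087632. The ranges overlapped, and the second site was the higher in replicate 2. The leading summits were within 116 bp, and the second summits spread over 810 bp, so only the leading site recurred by position.

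Of the remaining recurrent genes, *SYP111* (AT1G08560), the syntaxin of the forming cell plate, and *ACHT4* (AT1G08570), a thioredoxin of the chloroplast, shared their peaks. The leading pileup was 47, 57 and 39 with summits within 11 bp, the closest of the 13 genes, and the second pileup was 44, 34 and 37 with summits spread over 532 bp. *UBP1B* (AT1G17370), an RNA-binding protein of stress granules, had 47, 51 and 54 at its leading site and 34, 28 and 30 at its second, with no overlap of the ranges. AT1G56220 had 35, 38 and 35 against 29, 27 and 33. AT3G55240 had the highest leading site among the 13 genes, with 135, 138 and 154, while its second site had 44, 33 and 37, or 26.7% of the leading one. AT1G77290 had 36, 127 and 109 against 31, 36 and 38, with a listed value in replicate 1 far below the others. Its leading summits were at 29037215, 29035668 and 29035636, a spread of 1579 bp. The value of replicate 1 thus belongs to a peak at another place than those of replicates 2 and 3.

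Across the 13 genes, which represent 11 different sets of peaks, the mean pileup was 32.3 to 142 at the leading site (median 47.7) and 29.7 to 48.7 at the second (median 35.0). By pileup the leading site was the higher in all 3 replicates at 11 genes, with AT1G13940 and *ABI2* as the exceptions. By fold enrichment it was the higher in all 3 at 8 genes, and *SYP111*, *ACHT4* and AT1G56220 were further exceptions. Since the leading site is the one with the higher mean pileup, this order is partly fixed by its definition. The second summits were less well placed, with a median spread of 532 bp against 150 bp.

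**Figure D3:**
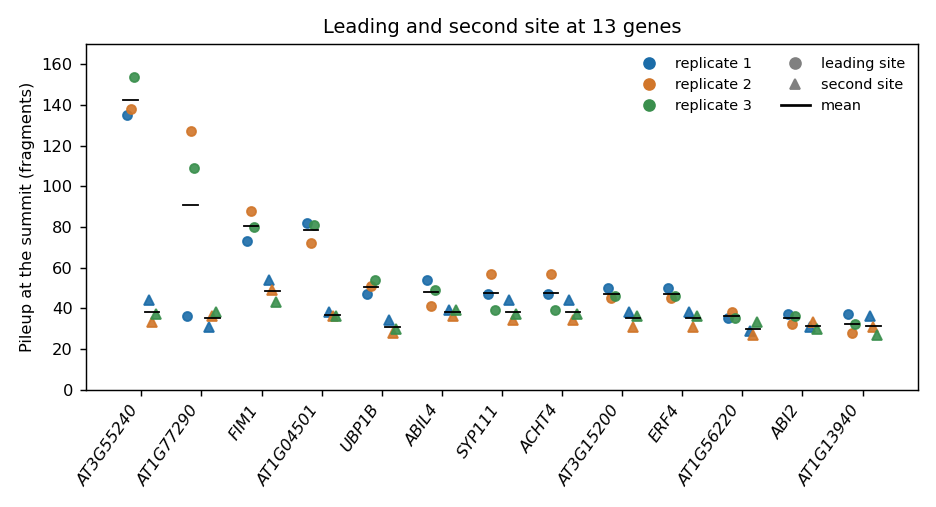
Pileup at the summit, in fragments, of the leading site (circles) and the second site (triangles) at the 13 genes with a second site in all 3 replicates. Colours mark replicates and bars mark means, and the second sites lie between 27 and 54 at every gene whereas the leading sites reach 154 at AT3G55240.

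Of the 17 genes with several peaks in all 3 replicates, 4 had no second common site. *PSAE-1* (AT4G28750), which encodes a photosystem I subunit, had a leading pileup of 74, 62 and 59 with summits at 14203964, 14204032 and 14204004 on chromosome 4. Its additional summits were at 14205430, 14204986 and 14205668, with 38, 31 and 33, and the peak of replicate 2 did not overlap those of the other replicates. *BZIP53* (AT3G62420), a bZIP transcription factor that acts in seed maturation and in the response to low energy, had leading values of 43, 45 and 50 and additional peaks of 40, 38 and 35. Only the additional peaks of replicates 1 and 2 overlapped. At AT1G21680, each replicate held 2 separate peaks, but overlaps between replicates joined all of them into a single site. The values of its higher peak were 41, 46 and 48. The peaks of AT3G52700 fell into 5 sites, of which 1 was common to the replicates.

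Within a replicate, the second peak was an ordinary peak by height. Over the 327 combinations of gene and replicate that held more than 1 peak, the strongest peak had a median pileup of 52 and the second a median of 34, with a range of 19 to 54. The medians over all deposited peaks were 35, 35 and 34 in the 3 replicates, close to that of the second peaks. The second peak reached a median of 66.7% of the strongest, and this was 71.3%, 61.5% and 56.4% in replicates 1, 2 and 3. It stood below 50% in 93 cases (28.4%) and at 80% or more in 100 (30.6%). Median fold enrichment was 2.98 at the strongest and 2.15 at the second peak, and median width was 853 and 406 bp.

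The second peaks also had weak q values, which are P values corrected for the number of places tested. Of 301 different second peaks 31 (10.3%) had a q value under 1e-05, against 26.6% of all 13344 deposited peaks, and 3 (0.997%) had a fold enrichment of 3 or more, against 16.5%. A second peak is by definition not the strongest of its gene, so these shares are lowered by the definition and were not tested. The 3 peaks with the higher fold enrichment were those of *RSZ21* (AT1G23860), a splicing factor, in replicate 3, *AFP1* in replicate 2 and *FIM1* in replicate 1, with 3.33, 3.04 and 3.07. *RSZ21* was singled out after its values were seen. Its second peak had a pileup of 51 against 53 for the strongest.

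Neighbouring summits within a replicate were 1230 bp apart at the median over 335 pairs, with quartiles of 946 and 1593 bp. The medians of the replicates were 1213, 1231 and 1239 bp and thus differed little. The distance was below 500 bp for 1 pair, 500 to 1000 bp for 105 pairs (31.3%), 1000 to 1500 bp for 126 (37.6%), 1500 to 2000 bp for 79 (23.6%) and 2000 bp or more for 24 (7.16%). The shortest distance, 397 bp, was at *WRKY7* (AT4G24240), which encodes a WRKY transcription factor, and the same gene had 1984 bp in replicate 2. The longest, 5547 bp, was at AT3G52700 in replicate 1. A pair of limits of the lists bear on these values. Deposited peaks of a replicate were never closer than 242, 269 and 266 bp, end to start, and never narrower than 241, 268 and 265 bp, so closer sites would have been reported as a single peak. By the paper's account, targets were assigned by peaks in the 2000 bp upstream of a gene. This window is no longer than the distances of the 24 pairs in the last class. At AT3G52700, neighbouring peaks were up to 5302 bp apart in replicate 1 and 4662 bp in replicate 2, end to start. Its listed peaks can therefore not all lie in 1 such window. The part of these limits in the distances was not tested.

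**Figure D4:**
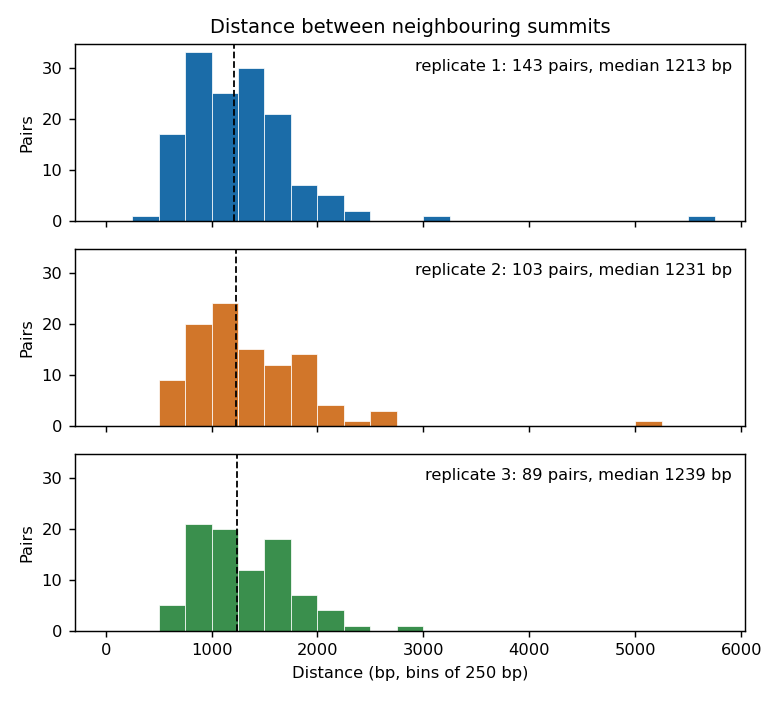
Distances between neighbouring summits of a gene within each replicate, in bins of 250 bp, with the number of pairs on the vertical axis. Dashed lines mark the medians of 1213, 1231 and 1239 bp, and few pairs lie at 2000 bp or above.

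At the 76 genes with a single site, the separate peaks of a replicate were joined through overlaps with peaks of other replicates. The widest peak of these genes had a median width of 1730 bp, against 1102 bp at the genes with several sites. The second summit lay inside a peak of both other replicates at 21 genes, inside a peak of 1 other replicate at 37 and outside the peaks of both at 18. An example was *HAT2* (AT5G47370), a homeodomain-leucine zipper factor of the auxin response. It had a highest pileup of 54, 48 and 47, and its second peaks stood 723 and 736 bp from the first in 2 replicates.

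The strongest peaks of the 247 genes covered a wide range. The mean highest pileup over the replicates was 30 to 148.3 with a median of 55, and the fold enrichment was 1.99 to 9.44 with a median of 3.24. Target genes with 1 line had a median of 57.7, but neither the pileup limit nor the flower list was applied to them. The upper end was set by the limit of 150. Just inside it were *PDH-E1 BETA* (AT1G30120), a subunit of the plastid pyruvate dehydrogenase, and AT1G30130, both with 133, 160 and 152, and *SYP41* (AT5G26980), a syntaxin of the trans-Golgi network, with 150, 143 and 148. Just outside were *SAMDC* (AT3G02470), an enzyme of polyamine synthesis, with 145, 165 and 151, and *UBP13* (AT3G11910), a ubiquitin protease, and AT3G11920, both with 152, 163 and 151.

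At the genes with the strongest peaks, the second peak was far below the first. *ERF12* (AT1G28360), another ethylene response factor of the repressor type, had a highest pileup of 141, 150 and 148, and its second peak, in replicate 2, had 38. *GATA1* (AT3G24050), a GATA zinc finger factor, shared values of 146, 125 and 164 with AT3G24040, and its second peak, in replicate 2, had 35. *PDH-E1 BETA* had a second peak of 33 in replicate 3, and *SYP41* 39 in replicate 1. AT5G50460 (131, 145 and 146) and *MAN7* (AT5G66460), a mannanase of the cell wall (121, 143 and 149), had second peaks of 31 and 40 in 1 replicate each. AT5G26990 shared the highest peak of *SYP41*.

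Shared peaks were frequent, as promoters of neighbouring genes can overlap. Among the 247 genes there were 232 different sets of peaks, 80 genes (32.4%) had at least 1 peak that was also listed for another target gene, and at 34 (13.8%) every peak was. The genes lay on all chromosomes. They were 31.6%, 17.6%, 34.6%, 30% and 26.9% of the target genes on chromosomes 1 to 5, with 73, 19, 72, 36 and 47 genes.

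The set was also read against 5 short lists of genes. As background, the 247 genes were 29.3% of the target genes used, and the rule that chose them removes genes with high pileup, genes on the flower list and the genes left out by name, so the counts are shaped by the selection and nothing is read from them. Of 29 loci of ER folding and the unfolded protein response, 9 were target genes and 2 belonged to the set, namely *OS9* (AT5G35080), which encodes a lectin of ER-associated degradation, and AT5G50460. *OS9* had a highest pileup of 55, 63 and 54 and a second peak of 31 in 1 replicate. *STT3A* (AT5G19690), the catalytic subunit of oligosaccharyl transferase, was not on that list and had 63, 79 and 56 with a second peak of 34.

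Of 30 loci of membrane traffic 11 were target genes and 7 were in the set (29.3% over all target genes), namely *SYP111*, *SYP41*, *RAB1A* (AT5G47200), *ARLA1C* (AT3G49870), AT3G51890, AT3G22845 and AT1G69460. *RAB1A*, a small GTPase of ER-to-Golgi transport, had 43, 33 and 36 and was among the genes with no common site. *ARLA1C*, an ARF-like GTPase, had 43, 53 and 44. AT3G51890, which encodes clathrin light chain 3, had 84, 97 and 85 and a second peak of 36 in replicate 1. AT1G69460 was the strongest of these after *SYP41*, with 108, 109 and 120 and a second peak of 46. AT3G22845 had 36, 36 and 42, and its second summits in replicates 2 and 3 lay 1116 and 924 bp from the first. Of the 7, *SYP111* had a second site in all replicates, against 5.26% of the 247 genes.

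Of 30 loci of the ABA core pathway 5 were target genes and 3 were in the set (29.3% over all target genes), *ABI2*, *AFP1* (AT1G69260) and *AFP2* (AT1G13740), all of which encode negative regulators. *AFP1* had 83, 85 and 89 and *AFP2* had 108, 118 and 88, both well above *ABI2*. Their second peaks, of 46 and 36, were each in 1 replicate. Of 13 loci for transcriptional repressors and co-repressors 4 were target genes and 3 were in the set (again beside 29.3%), *ERF4*, *ERF12* and *TPL* (AT1G15750), the co-repressor TOPLESS. *TPL* had 87, 108 and 101 with a second peak of 29. Among 13 actin loci 2 were target genes, and both, *FIM1* and *ABIL4*, were in the set and had a second site in all replicates. As both were named in the choice of the genes, nothing is read from this count.

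Further genes can be grouped by the process they act in, in groups put together after the values were seen. The groups are picks and do not hold every gene of a class, so their medians and counts describe the picks only. The 17 genes picked for hormone pathways had a mean highest pileup of 35.3 to 146.3 with a median of 46.7. The group held *GAI* (AT1G14920), a DELLA repressor of gibberellin responses, with 38, 41 and 36, and *GID1B* (AT3G63010), a gibberellin receptor, with 56, 37 and 51. It also held *BES1* (AT1G19350), a transcription factor of the brassinosteroid response, with 41, 40 and 40, and its relative *BEH3* (AT4G18890), with 43, 35 and 37. *BEH3* was the only gene of the group with a second site in exactly 2 replicates. The auxin genes *SHY2* (AT1G04240), *ARF10* (AT2G28350) and *GH3.3* (AT2G23170) encode a repressor, a response factor and a conjugating enzyme, and their means were 40.7 ± 1.53, 42.7 ± 0.577 and 61 ± 6.08 (SD, n = 3). Of the 17 genes, 7 had a single site, 7 had a second site in 1 replicate, and 2, *ABI2* and *ERF4*, had it in all 3, beside 30.8%, 51.0% and 5.26% of the 247 genes.

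The 15 other transcription factors picked, which are not all those of the set, had a median of 60. A second site in all replicates was seen at 0 of the 15, beside 5.26% of the 247 genes, which is less than 1 gene in a group of this size. *NAC089* (AT5G22290) and *NTL8* (AT2G27300), which are NAC factors tethered to membranes, had 80, 80 and 55 and 46, 48 and 47. *CBF1* (AT4G25490), a regulator of cold-induced genes, had 77, 81 and 45, where replicate 3 was the lowest, and its peaks stood 2341 bp apart. Among 9 genes of the chloroplast, *CLA1* (AT4G15560), which encodes the entry enzyme of the plastid isoprenoid pathway, had 94, 100 and 88, and *LHCB2.3* (AT3G27690), a light-harvesting protein, had 40, 43 and 49. Among 6 genes of chromatin, *BRM* (AT2G46020), a remodelling ATPase, had 68, 56 and 52, and *EMF1* (AT5G11530), a component of Polycomb repression, had 56, 68 and 70. *EMF1* had a second site in 2 replicates, with 35 and 31. *ADF1* (AT3G46010), an actin-depolymerizing factor, had 50, 76 and 75 and a second site in 1 replicate.

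For most genes the highest pileup was steady between replicates, with a median coefficient of variation of 10.3%. It exceeded 30% at 7 genes, and there the target list and the deposited peak lists differed. At *BZIP24* (AT3G51960), a bZIP factor of the salt response, the highest listed peaks had 325, 40 and 37. The deposited lists held a peak of 325, 311 and 326 at the place of the strongest one, with summits at 19287630, 19287665 and 19287655 on chromosome 3, and the peaks of replicates 2 and 3 were listed for other genes, AT3G51980 and AT3G51990. The mean of the deposited values was 320.7 ± 8.39 (SD, n = 3), which is above the limit of 150, so *BZIP24* belongs to the set only through the way its peaks were listed. Its peak of 325, as listed in 1 replicate, counts as its second site.

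At the other uneven genes, too, a replicate with a low listed value held a stronger deposited peak. AT1G18265 was listed with 35, 135 and 32, while the deposited peaks at that place had 120, 135 and 144, and its neighbour *EBS5* (AT1G18260), a component of ER-associated degradation, was listed with peaks there. AT3G50680 and AT3G50682 were listed with 41, 43 and 150 against 106, 117 and 150. AT1G77290 was listed with 36, 127 and 109 against 89, 127 and 109, AT3G52700 with 40, 34 and 79 against 77, 75 and 79, and AT4G39420 with 68, 69 and 29 against 68, 69 and 64. For AT3G52700 and AT4G39420 the deposited peaks were listed for no other target gene. The deposited values thus held the strong peak in all 3 replicates at each of the 7 genes. In all, the strongest peak was matched in the 3 deposited lists, but was not listed for the gene in every replicate, at 14 of 247 genes.

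**Figure D5:**
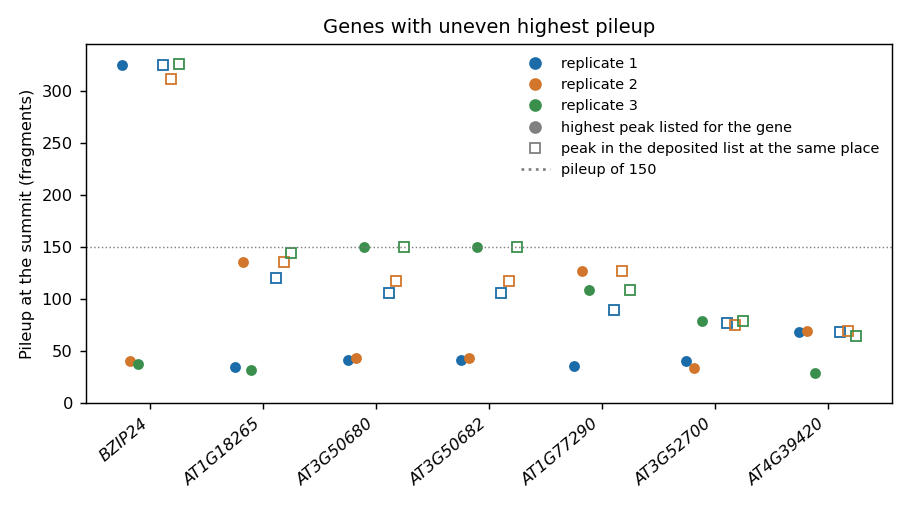
Pileup at the summit, in fragments, at the 7 genes with a coefficient of variation over 30%. Filled circles are the highest peak listed for the gene in each replicate and open squares the strongest deposited peak at the same place, and the squares of *BZIP24* lie at 311 to 326, far above the dotted limit of 150.

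Peaks that were deposited but not listed for the gene bore on some second sites as well. At 12 of the 126 genes with a second site in 1 replicate, another replicate held a deposited peak at that place that was not listed, and this was so at 2 of the 32 genes with a second site in 2 replicates. With these peaks added, 18 genes had at least 2 sites in all replicates. The 5 gained were AT3G03170, *BZIP24*, AT3G52700, *BZIP53* and *EMF1*. At *EMF1* the added peak of replicate 3 had a pileup of 39, so its second site then had 35, 31 and 39. At *BZIP53* the added peak of replicate 3 had 33, beside the listed 40 and 38 of replicates 1 and 2. The summits of these 3 peaks lay apart, at 23096086, 23094540 and 23095458 in replicates 3, 1 and 2. Replicate 1 also held an unlisted peak of 50 in the joined site, with its summit at 23095627. Of the 11 genes with no common site, which included *RAB1A*, *JAZ3* (AT3G17860), a repressor of jasmonate responses, and *CPK32* (AT3G57530), a calcium-dependent protein kinase, 3 had a common site in the deposited lists.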

How the data were processed

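The data were the peak lists of 3 anti-MYC ChIP replicates, grouped by the sample labels, and the input entered only through peak calling. The authors used Skewer to trim adapters and low-quality ends and to remove reads shorter than 50 bp, mapped unique reads with Bowtie, removed duplicates and called peaks with MACS at a P value under 0.001. Versions were not given in the sources used here. The submitters' processing notes name TAIR10. The deposited lists give for each peak its position, its pileup (a signal in fragments), its fold enrichment (a ratio to the local background) and the −log10 of its p-value and q-value. No read totals are given, so depth is unknown, and no interval was computed. The target list comes from the study, with peaks in the upstream 2000 bp of a gene, and only its peak names and genes were taken, each peak being looked up in the deposited lists. A further 1240 lines of it were not used here. Columns of other samples numbered 0.

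Peaks of a gene were joined into sites by an overlap of at least 1 bp, or by summits with gaps of up to 300 bp, with Python 3.11.15, pandas 2.3.3 and NumPy 2.4.6, and plotted with matplotlib 3.10.9. The code was tested on simulated peaks. Positions are 1-based. RefSeq symbols were found for 117 of 247 loci, with 239 in the table, and other loci are given by identifier. Genes were named if they had a second site in all replicates, ranked among the 10 highest, had the most lines, lay next to the pileup limit or belonged to a gene list. Others were named after their values were seen. The genes and lists were chosen with earlier results of these data known, and no test was run on them. A motif search in the peaks was not run, as no genome sequence was used here.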

Additional observations from a re-analysis of the deposited data

How the results depend on the processing

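There were 47 alternatives, of which 27 stayed near the reported value and 20 moved it. The results are counts, a distance and a share, so no direction was compared. For counts the limit of near was a fixed factor, wide enough that 18 in place of 13 and 112 in place of 76 stayed near. For the distance and the share it was the SD of the replicate medians, 13.3 bp and 7.57 percentage points. Of second sites common to the 3 replicates there were 13 genes, and their number fell to 7 when peaks had to overlap reciprocally by 50%, 5 with summit clusters, 6 with a q value under 0.01, 1 with a q value under 1e-05 and 3 with a fold enrichment of at least 2. Leaving out a replicate, which asks for a site in the other 2 only, gave 22 to 31. The 126 genes with a second site in 1 replicate became 214 with the reciprocal overlap, 201 with summit clusters and 13 with a q value under 1e-05, and 113 to 138 without a replicate. The 76 genes with a single site became 0 with the reciprocal overlap, 0 with summit clusters and 206 with a q value under 1e-05, and 78 to 112 without a replicate. Both counts of 0 were largely fixed by choosing genes with several separate peaks in a replicate. The 5 genes with a second summit cluster became 10 with gaps of up to 500 bp, 2 with a q value under 0.01 and 13 to 17 without a replicate. The median summit distance of 1230 bp became 477 bp when measured between peak ends. The limits on q value and fold enrichment removed peaks. The reciprocal overlap and the summit clusters kept all listed peaks and changed only how they were joined. Causes of the moves were not tested. Counting genes with the same listed peaks once was chosen after the data were seen and gave 11 in place of 13. The second peak's share of the strongest, 66.7%, was 60% to 68.9% without a replicate and 71.0% by fold enrichment. No paired analysis was possible because all 3 ChIP replicates belong to a single condition and no test was made. Without read totals, a site missing from a replicate's list cannot be told apart from a site below its calling limit.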
